A study of Rattus norvegicus with 12 samples.

Results

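The receptors for insulin-like growth factors (IGFs) and the binding proteins that hold these factors in the extracellular fluid were followed in CC531, a rat colon carcinoma cell line. The set was defined by symbol as Igf1r, Igf2r and Igfbp1 to Igfbp6, which makes 8 genes, and every probe set that the array annotation assigns to 1 of these symbols alone was taken. Of the 8 genes, 7 had such a probe set, 13 probe sets in all, against 4736 genes named on the whole array. Igfbp4 had none and has no value here. The 12 arrays each held total RNA of CC531 cells: 5 after 4.5 mM butyrate (2, 6, 12, 16 and 24 h), 5 after 3 mM aspirin (the same hours) and 2 untreated (2 and 24 h). Butyrate is a fatty acid made by gut bacteria that blocks histone deacetylases, and aspirin is an inhibitor of cyclooxygenases. All arrays are of 1 cell line, and each treatment and hour has 1 array.

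The type 1 receptor, the product of Igf1r, is a tyrosine kinase that binds IGF1 and IGF2 at the cell surface and signals through the PI3K and MAP kinase branches towards growth and survival. The product of Igf2r is a different kind of molecule: it has no kinase, takes up IGF2 for breakdown and, as the cation-independent mannose 6-phosphate receptor, carries enzymes to the lysosome. The binding proteins are secreted, compete with the receptors for IGFs and are themselves cut by proteases. In the gut epithelium and its tumours IGF signalling is known as a growth stimulus.

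No label states whether each array had a culture of its own, so the p-values below reflect the scatter among these 12 arrays alone, which may be technical and which for a drug includes any change over its hours. The deposited values of the 12 arrays were on a like scale, with trimmed means between 1001.52 and 1002.08. Over the 6118 probe sets bright enough to be tested, the untreated pair correlated at 0.94 on the log2 scale. Treated arrays correlated with the untreated 2 h array at 0.866 to 0.942 and with the untreated 24 h array at 0.884 to 0.97. The epithelial label held in its markers: Krt8, Krt18, Krt19, Epcam and Cldn3, all 5 of the epithelial genes with a probe set, were above the floor of 91 intensity units on all 12 arrays. Of the 6 intestinal genes, each read on its brightest probe set, Lgals4 and Muc2 were above it throughout, while Cdx1 and Fabp1 were at the floor on every array. Fabp2 was above it on 3 arrays and Gucy2c on 6. The Muc2 probe sets M81920_at and U07615_at were at the floor on all 12. Among fibroblast and smooth muscle markers, read likewise, Acta2, Col1a1, Col1a2 and Pdgfra were above the floor on all 12 arrays. Col3a1 was above it on 10 arrays, Tagln on 3 and Des on 2. Other probe sets of Pdgfra (rc_AI137657_at, Z14118cds_at and Z14118cds_g_at), Acta2 (X06801cds_i_at) and Tagln (M83107_at) were at the floor on all 12. For Col3a1 the other probe set, X70369_s_at, was above it on 1 array. The summed level of the 7 such genes was 3776 to 4721 in butyrate, 2148 to 4895 in aspirin and 4633 to 5725 in untreated arrays. Of the endothelial, blood and immune, and hepatocyte markers, 3 genes each had a probe set, and 0 were above the floor on all 12 arrays. Many were above it on most arrays on their brightest probe set, however: Pecam1, Ptprc and Alb on 11, Cd4 and Hbb on 10 and Apoa1 on 9. Kdr was above it on 2 arrays, Ttr on 1 and Vwf on 0. Other probe sets of Alb (rc_AA860062_g_at, rc_AA866237_s_at and rc_AA945321_at) and Ptprc (K03039mRNA_s_at and M10072mRNA_s_at) were at the floor on all 12 arrays. That of Apoa1 (M00001_i_at) was above it on 3. The part of such cells or genes in the results was not tested. In total RNA, fewer cells with a transcript and less of it per cell cannot be told apart.

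Most binding protein probe sets gave no signal that could be measured. Of the 13 probe sets, 7 lay at or below the floor on each of the 12 arrays and were not tested. The single probe set of Igfbp1 (M58634_at), a binding protein best known from the liver, ranged from −287.3 to −73.7 with butyrate, from −457.8 to 46.7 with aspirin and from −440.6 to −3.7 without treatment. Igfbp3, the main IGF carrier of serum, was read by M31837_at at −69.9 to 13.9 over the 12 arrays. Its other probe set, rc_AI009405_s_at, read −188.3 to −22.4. So neither Igfbp1 nor Igfbp3 was above the floor on any array, and no change of either can be given. The same held for 2 of the 3 probe sets of Igfbp2 (A09811cds_s_at, −558.9 to −200.6, and J04486_at, −101.9 to 59.9). It held as well for 2 of the 3 of Igfbp5 (M62781_at, −215.7 to −78.2, and rc_AI070577_at, −269.6 to −66.2). Values below 0 are what a probe set can give after background or mismatch signal is subtracted, and their size carries no order. The plot of the dim probe sets shows them for all arrays.

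**Figure D1:**
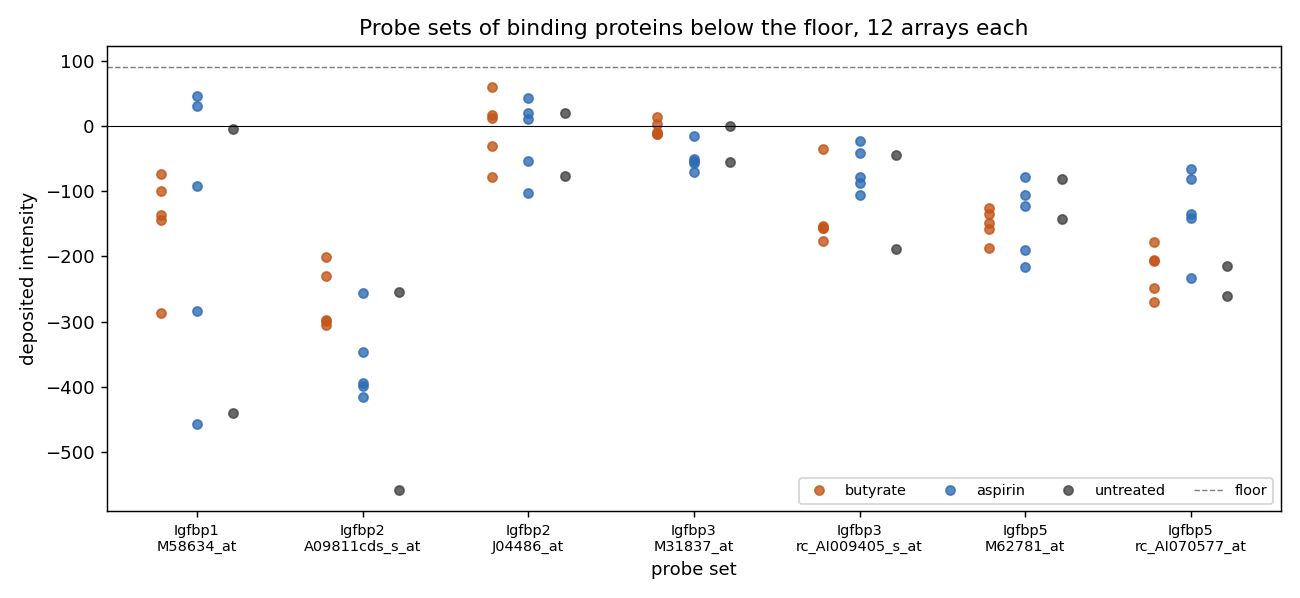
Deposited intensity (linear units) of the 7 probe sets that were at or below the floor of 91 (dashed line) on all 12 arrays. Each point is 1 array, with butyrate to the left, aspirin in the middle and untreated to the right; no point reaches the dashed line, and the highest is 59.9, for Igfbp2 (J04486_at).

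The remaining 6 probe sets, of Igf1r (2), Igf2r, Igfbp2, Igfbp5 and Igfbp6, were tested. They passed the filter on their mean over all 12 arrays. The plot by hour gives each of their values.

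**Figure D2:**
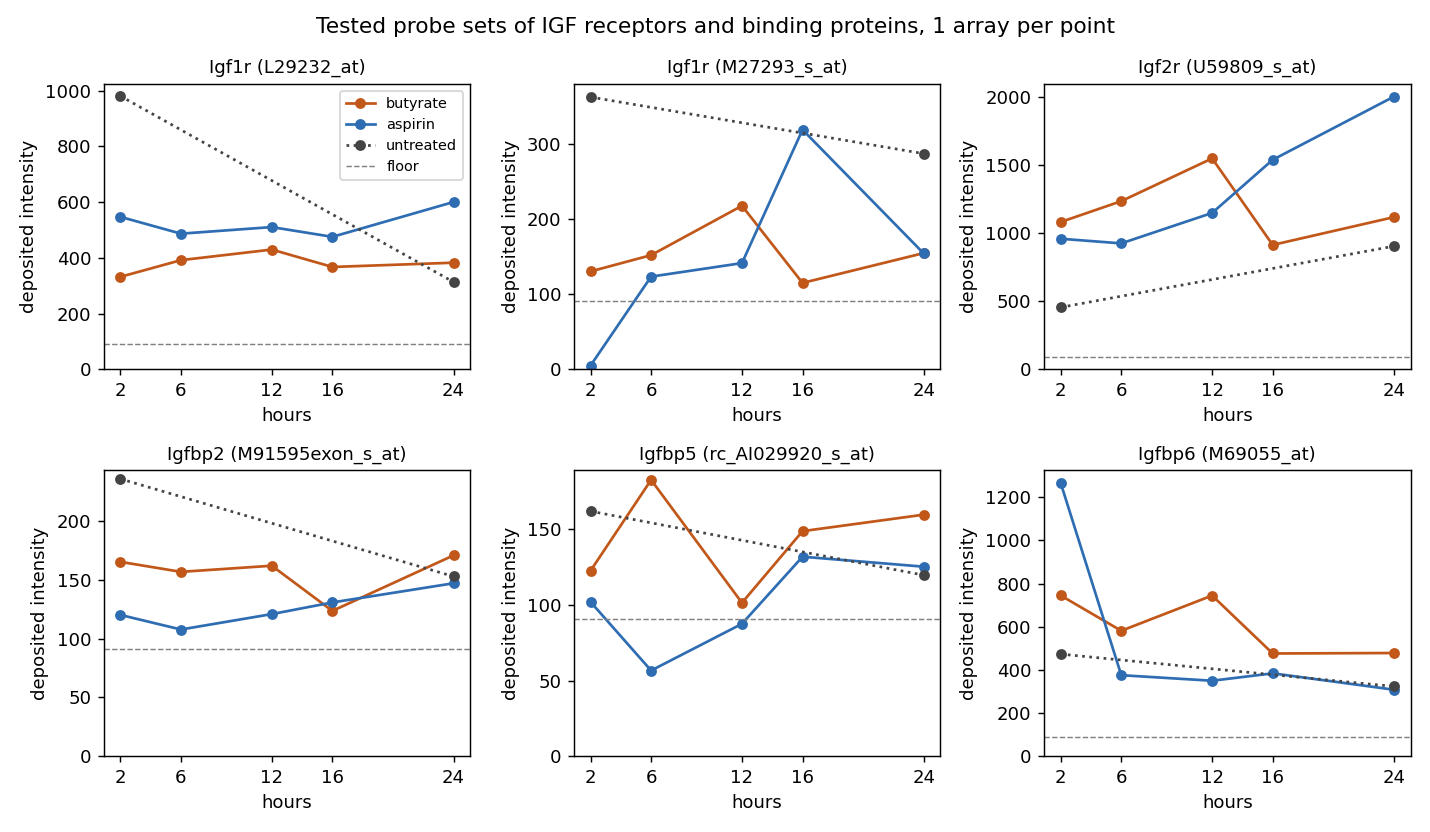
Deposited intensity (linear units, axis from 0) against hours for the 6 tested probe sets, with 1 array per point, lines joining butyrate (orange), aspirin (blue) and untreated (dotted) arrays, and the floor of 91 dashed. All 10 treated values of Igf2r lie above both untreated ones, and Igfbp6 has a single high aspirin value of 1266.1 at 2 h.

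Igf1r was read differently by its 2 probe sets. On L29232_at the intensity was 332.2, 392, 430, 367.6 and 382.9 after 2, 6, 12, 16 and 24 h of butyrate, 547.3, 487, 510.6, 475.6 and 600.5 after the same hours of aspirin, and 980.5 and 313.7 in untreated cells at 2 and 24 h. The untreated pair spanned all of the treated values, so the groups overlapped, and the distance between the untreated arrays (0.32-fold at 24 h relative to 2 h) was wider than that within either drug. On M27293_s_at the intensity was 130.5, 152.2, 217.9, 115.2 and 154.9 with butyrate, 5.2, 123.6, 141.6, 319.1 and 154.5 with aspirin, and 362.6 and 287.3 without treatment. Here every butyrate array lay below both untreated arrays, and 4 of the 5 aspirin arrays did, with the one at 16 h between them and the one at 2 h at the floor. Over the 12 arrays the probe sets correlated weakly (Pearson 0.279, Spearman 0.0699, a description of values from shared arrays).

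The log2 difference from untreated cells on M27293_s_at was −1.10 ± 0.40 with butyrate (estimate ± SE, limma, adjusted p = 0.0892). With aspirin it was −1.10 ± 0.40 (adjusted p = 0.401), or −0.91 (adjusted p = 0.409) without the aspirin 2 h array at the floor. On L29232_at the differences were −0.55 ± 0.37 with butyrate (adjusted p = 0.357) and −0.09 ± 0.37 with aspirin (adjusted p = 0.985). None passed the threshold of 0.05. The butyrate value on M27293_s_at did pass with quantile normalization (−1.27, adjusted p = 0.0432), with median centring of the arrays (−1.29, 0.032) and without the aspirin 16 h array (0.0382). Other alternatives left it further from the threshold: the adjusted p was 0.372 with the lower floor, 0.164 with no filter and 0.125 with hour as a factor. With the higher floor the estimate was −0.77 (0.0539). On the 2 and 24 h arrays alone the estimate was −1.18.

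Igf2r, on its single probe set U59809_s_at, was the member that stood on the same side of untreated cells with both drugs. Its intensity was 1082.3, 1235.4, 1549, 914.1 and 1118 after 2, 6, 12, 16 and 24 h of butyrate, 959.5, 925.5, 1148.9, 1539 and 2002.3 after the same hours of aspirin, and 456.2 and 904.8 in untreated cells at 2 and 24 h. Each treated array was above both untreated arrays, though the lowest butyrate value exceeded the untreated 24 h value only narrowly. Relative to untreated cells Igf2r was 1.81-fold with butyrate (log2 0.85 ± 0.35, 95% interval 0.11 to 1.60, limma, adjusted p = 0.123). With aspirin it was 1.96-fold (log2 0.97 ± 0.35, interval 0.22 to 1.71, adjusted p = 0.393). Both comparisons share the 2 untreated arrays, which themselves stood 1.98-fold apart at 24 h relative to 2 h. Neither passed the threshold.

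At matched hours the distance of Igf2r from untreated cells differed. At 2 h it was 2.37-fold with butyrate and 2.1-fold with aspirin, and at 24 h it was 1.24-fold with butyrate and 2.21-fold with aspirin, with 1 array on each side and no replicate check. A change of at least 2-fold was seen at 16.2% of tested probe sets for butyrate and 18.1% for aspirin at 2 h, and at 28.4% and 13.2% at 24 h. The untreated arrays at 24 and 2 h differed that much at 16.5%.

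Igfbp2, whose product is a binding protein common in serum, was measurable on M91595exon_s_at alone. The intensity was 165.2, 156.7, 161.9, 123.5 and 170.7 over the hours of butyrate, 120.1, 107.7, 120.8, 130.7 and 147 over those of aspirin, and 235.7 and 152.8 in untreated cells. All aspirin arrays lay below both untreated ones, while butyrate arrays overlapped them. The log2 difference was −0.30 ± 0.24 with butyrate (limma, adjusted p = 0.453) and −0.61 ± 0.24 with aspirin (adjusted p = 0.404). The aspirin value passed the test when the untreated 24 h array was left out (−0.92, 0.0411) and was −0.29 (adjusted p = 1) when the untreated 2 h array was left out.

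Igfbp5, for a binding protein that also attaches to the extracellular matrix, stayed close to the floor on rc_AI029920_s_at. It read 122.7, 182.8, 101.5, 148.9 and 159.8 with butyrate, 102.1, 56.7, 87.6, 132 and 125.4 with aspirin, and 162.1 and 119.8 without treatment. The groups overlapped, and 2 of the 5 aspirin arrays, those at 6 and 12 h, were at the floor. Its log2 difference from untreated cells was 0.01 ± 0.26 with butyrate (interval −0.54 to 0.56, limma, adjusted p = 1) and −0.38 ± 0.26 with aspirin (interval −0.93 to 0.17, adjusted p = 0.639).

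Igfbp6, for a binding protein that prefers IGF2 to IGF1, read 745.1, 581.5, 744.8, 476.2 and 478.4 on M69055_at after 2, 6, 12, 16 and 24 h of butyrate. It read 1266.1, 375.6, 349.9, 384.2 and 308.4 after the same hours of aspirin, against 473.3 and 323.5 in untreated cells. Every butyrate array lay above both untreated arrays, the lowest by a small margin. With aspirin the 2 h array was far above all others and the later 4 lay near the untreated pair. The log2 difference was 0.60 ± 0.47 with butyrate (95% interval −0.42 to 1.62, limma, adjusted p = 0.449) and 0.22 ± 0.47 with aspirin (interval −0.80 to 1.24, adjusted p = 0.928). Without the aspirin 2 h array the aspirin value was −0.15 (adjusted p = 0.922).

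Set beside the whole array, 0 of the 6 tested member probe sets were called with butyrate against untreated cells, where limma called 11.7% of all tested probe sets. At an unadjusted p under 0.05 there were 2, of Igf1r (M27293_s_at) and Igf2r, where 28.8% of all tested probe sets passed. Every array of the drug lay on one side of the untreated pair for 3 members, namely Igf2r and Igfbp6 (above) and Igf1r on M27293_s_at (below), and for 27.8% of all tested probe sets (14.7% above, 13.2% below). With aspirin 0 of 6 were called, and 0.147% of all tested probe sets were. At an unadjusted p under 0.05 there were 3, of Igf1r (M27293_s_at), Igf2r and Igfbp2, against 10.7% of the array, and 2 did not overlap with the untreated pair, Igf2r above and Igfbp2 below, against 11.6% of all tested probe sets (3.81% above, 7.78% below). The median log2 difference of the 6 was −0.14 with butyrate and −0.23 with aspirin, beside 0.00093 and −0.04 over all tested probe sets. A change that misses the threshold is not shown to be absent: the 95% intervals of the members reached from −1.96 to 1.62 with butyrate and from −1.95 to 1.71 with aspirin.

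**Figure D3:**
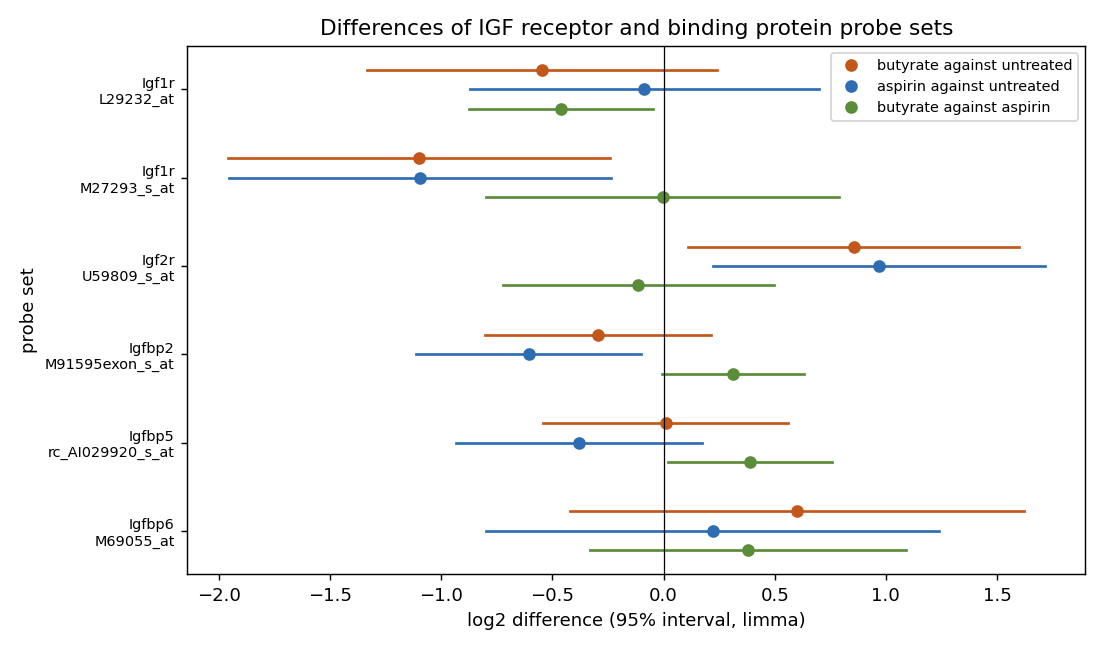
Log2 difference with its 95% interval (limma) for the 6 tested probe sets, in butyrate against untreated (orange), aspirin against untreated (blue) and butyrate against aspirin (green). Intervals of Igf2r and of Igf1r on M27293_s_at exclude 0 against untreated cells with both drugs before adjustment, as does that of Igfbp2 with aspirin, while no adjusted p was under 0.05.

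The untreated arrays decided much of this. Without the untreated 2 h array Igf2r stood 0.36 (log2) above untreated cells with butyrate (limma, adjusted p = 0.645) and 0.47 above them with aspirin (adjusted p = 1), and without the untreated 24 h array 1.35 (0.0753) and 1.46 (0.0762). Igf1r on L29232_at turned its direction: with butyrate it read 0.28 (adjusted p = 0.562) without the untreated 2 h array and −1.37 (0.00895) without the 24 h array, and with aspirin 0.74 (0.528) and −0.91 (0.0684). On M27293_s_at Igf1r stayed lower in all of these fits, at −0.93 and −1.27 with butyrate and −0.93 and −1.26 with aspirin. Igfbp6 with butyrate kept its sign too, at 0.88 and 0.33.

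**Figure D4:**
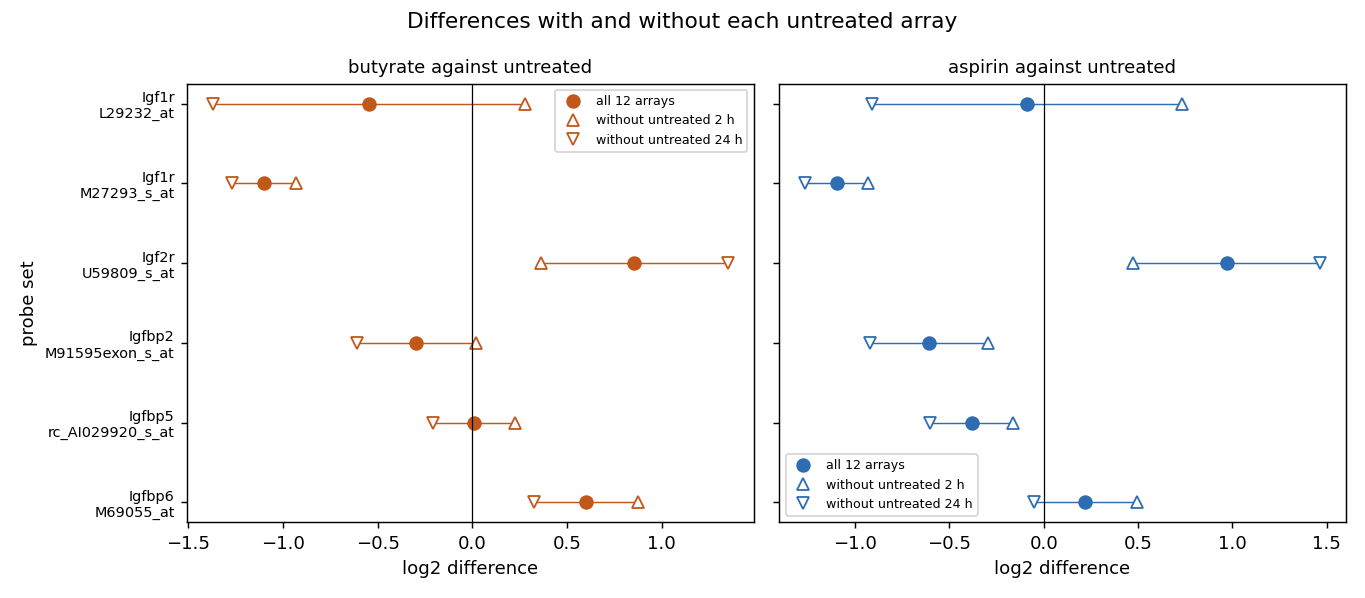
Log2 difference from untreated cells for the 6 tested probe sets with all 12 arrays (filled), without the untreated 2 h array (upward triangles) and without the untreated 24 h array (downward triangles), for butyrate on the left and aspirin on the right. The 3 estimates of Igf1r on L29232_at lie on both sides of 0, and those of Igf2r are above 0 with either drug.

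Butyrate was set against aspirin over the 5 shared hours, with hour as a block. Here 0 of the 6 member probe sets were called by limma, while 25.2% of all tested probe sets were. At an unadjusted p under 0.05 there were 2 members, Igf1r on L29232_at and Igfbp5, against 40.5% of the array. Igf1r on L29232_at was lower with butyrate at each of the 5 hours (log2 −0.25 to −0.72), and its butyrate arrays (332.2 to 430) did not overlap the aspirin arrays (475.6 to 600.5), as held for 15.6% of tested probe sets, 5.3% with butyrate lower and 10.3% with butyrate higher. The difference was −0.46 ± 0.17 (limma, adjusted p = 0.0953). It passed without the hour block (0.0439), without a variance trend (0.0386), with quantile normalization (−0.76, 0.0262) and with median centring (−0.77, 0.0249). Median centring moved the median of all tested probe sets by −0.31 and quantile normalization moved it by −0.12.

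The second Igf1r probe set, M27293_s_at, showed no such distance between the drugs (−0.0048 ± 0.33, interval −0.80 to 0.79, limma, adjusted p = 1). Igfbp2 was 0.31 ± 0.13 (adjusted p = 0.13) and Igfbp5 0.39 ± 0.15 (adjusted p = 0.109) higher in the estimate with butyrate than with aspirin. For Igfbp5 the aspirin arrays at 6 and 12 h were at the floor, and the estimate ran from 0.0013 to 0.54 over the alternatives. For Igf2r the estimate was −0.11 ± 0.25 (interval −0.72 to 0.50, adjusted p = 0.761). Its butyrate array was above the aspirin array at 2, 6 and 12 h (1.13, 1.33 and 1.35-fold) and below it at 16 and 24 h (0.594 and 0.558-fold), with 1 array on each side. The fitted slopes of Igf2r over log2 hours differed by −0.29 ± 0.15 between the drugs (limma, adjusted p = 0.355), which did not pass. Igfbp6 was lower with butyrate than with aspirin at 2 h (0.589-fold) and higher at the other 4 hours, by 1.24 to 2.13-fold (0.38 ± 0.29, adjusted p = 0.379). A distance of at least 2-fold between the drugs was found for Igfbp5 at 6 h (2.01-fold, with the aspirin array at the floor), Igfbp6 at 12 h and Igf1r on M27293_s_at at 16 h (0.361-fold). The share of all tested probe sets that far apart was 13.5% at 2 h, 23.8% at 6 h, 24% at 12 h, 22.5% at 16 h and 24.1% at 24 h.

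Slopes over the logarithm of the hours were fitted within each drug, in log2 units per doubling of time. With butyrate 0 of 6 members had a called slope (limma, 0 at an unadjusted p under 0.05), while 8.99% of all tested probe sets were called and 24.1% had an unadjusted p under 0.05. The 6 slopes lay between −0.16 and 0.06. With aspirin 0 of 6 were called and 2 had an unadjusted p under 0.05, where 1.65% of all tested probe sets were called and 19.7% had an unadjusted p under 0.05. These were Igfbp6, with a slope of −0.53 ± 0.12 (adjusted p = 0.066), and Igf2r, with 0.28 ± 0.10 (adjusted p = 0.178). The Igfbp6 slope was −0.11 (adjusted p = 0.864) without the aspirin 2 h array. It passed with the lower floor (0.0497), quantile normalization (0.0442), median centring (0.0302) and without the aspirin 6 h array (0.0291). Igf2r with aspirin was higher at 24 h than at any earlier hour. Igf1r on M27293_s_at had a slope of 0.34 ± 0.15 with aspirin (adjusted p = 0.274), on a series that starts at the floor. The slopes of the drugs differed at 0 of 6 members (limma, 0 at an unadjusted p under 0.05, 1.73% of all tested probe sets called and 18.2% at an unadjusted p under 0.05), with the nearest at Igfbp6 (0.37 ± 0.18, adjusted p = 0.32).

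Since no member was called, the genes with the most alike pattern were sought for the member with the widest range, Igf2r, among 5011 tested probe sets of other single genes. The highest correlations over the 12 arrays were those of Ddit3, a stress-induced transcription factor (U30186_at, Pearson 0.929, Spearman 0.909), Gstt2, a glutathione transferase (rc_AI138143_at, 0.914 and 0.657), and Manea, a Golgi mannosidase (rc_AI639462_at, 0.905 and 0.881). Without the 2 arrays farthest from the Igf2r median, untreated 2 h and aspirin 24 h, Pearson's r was 0.759 for Ddit3, 0.618 for Gstt2 and 0.813 for Manea. Ddit3 read 2029.6, 2478.9, 2133.9, 1737.7 and 1802.1 over the hours of butyrate, 1464.4, 1049.6, 3004.9, 3445 and 4849.8 over those of aspirin, and 541.7 and 1460.2 in untreated cells. As with Igf2r, its lowest value was the untreated 2 h array and its highest the aspirin 24 h array. These are the best of many pairs on shared arrays and carry no test.

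Around the receptors, a list of 82 other genes of the IGF system was examined, of which 48 had a tested probe set (78 probe sets). The ligands themselves were dim or did not pass. For Igf1 all 5 probe sets were at the floor in the aspirin and untreated arrays, and values above it were found with butyrate alone, on 3 of its probe sets. M15481_at read 47.6, 128.3, 162.5, 173.1 and 85.2 over the hours of butyrate, at most −4.1 with aspirin and at most −38.5 in untreated cells (log2 difference with butyrate 0.45, adjusted p = 0.238). M15481_at passed the filter through its butyrate arrays alone, so its test lends no support to a rise. The same goes for X06107_r_at, which was above the floor on the butyrate 12 h array alone (589.3). It is the brightest Igf1 probe set, so it stands for Igf1 in the counts and medians of the list below. Igf2 was measurable on 2 of its 6 probe sets. On M17960_g_at it read 547.3 to 910.3 with butyrate, 365.2 to 576.9 with aspirin and 681.3 to 756.9 in untreated cells. The estimates were 0.07 for butyrate (limma, adjusted p = 0.922) and −0.62 for aspirin (adjusted p = 0.465) against untreated cells, and 0.69 for butyrate against aspirin (adjusted p = 0.0544). On M17960_at they were 0.21 for butyrate (limma, adjusted p = 0.757), −0.33 for aspirin (0.82) and 0.55 for butyrate against aspirin (0.159).

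Igfals, for the acid-labile subunit that joins IGF and binding protein in serum, read −0.14 (adjusted p = 0.834) with butyrate and −0.08 (0.985) with aspirin on S46785_g_at. Its second tested probe set, S46785_at, was at the floor on both untreated arrays and read 0.70 (0.161) with butyrate and 0.51 (0.596) with aspirin. The related insulin receptor, Insr, read −0.42 (adjusted p = 0.451) and −1.04 (0.361), with 1 butyrate and 3 aspirin arrays at the floor. The receptor substrate gene Irs1 read −0.30 (0.346) and −0.23 (0.741). Akt1, for a kinase below the receptor, read −0.66 (0.122) and −0.66 (0.404) on rc_AA799664_at, and its other probe set gave −0.84 (0.108) and −1.09 (0.321). M6pr, the cation-dependent companion of Igf2r, had no probe set of its own. So none of these passed with either drug (limma).

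Calls were then counted over the whole list, with ligands, related receptors and the growth hormone axis included. Taking the brightest probe set of each of the 48 genes, 4 rose (Pik3r2, Pdpk1, Tsc2 and Ptpn1) and 0 fell with butyrate against untreated cells, where 11.7% of all tested probe sets were called, and the list median was −0.20. By list these were 2 of the 10 tested genes of the PI3K and AKT branch, 1 of the 6 of the mTOR branch and 1 of the 6 brakes on the receptors. With aspirin 0 rose and 0 fell (limma), with a median of −0.22. With butyrate against aspirin 5 were higher and 1 was lower, with a median of 0.09. At an unadjusted p under 0.05 there were 9 of the 48 genes with butyrate (28.8% of all tested probe sets), 8 with aspirin (10.7%) and 14 with butyrate against aspirin (40.5%). Over all tested probe sets the medians were 0.00093 with butyrate, −0.04 with aspirin and 0.10 for butyrate against aspirin. Of all tested probe sets 7.78% were called higher and 3.92% lower with butyrate, 0.0817% and 0.0654% with aspirin, and 15.6% and 9.61% with butyrate against aspirin. As with the members, both drugs are set against the same 2 untreated arrays.

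Pik3r2, for a regulatory subunit of PI3K, read 449.9, 537.7, 588.3, 511 and 592.6 on D64046_at over the hours of butyrate, 80.6, 23.9, 177.5, 79.8 and 89.4 over those of aspirin, and 156.9 and 91.8 in untreated cells. All butyrate arrays were above every other array. It rose with butyrate by 2.15 ± 0.33 against untreated cells (log2, limma, adjusted p = 0.00188) and was 2.36 ± 0.20 higher than with aspirin (0.0046). The distance from aspirin depends on the floor, where 4 of the 5 aspirin arrays lay: it was 1.55 with the higher floor and 2.82 with the lower one, and passed with both. The rise against untreated cells, whose 24 h array was just above the floor, was likewise 1.55 with the higher floor. With the lower floor it was 2.15, and it passed with both. Its other probe set, D64046_g_at, was at the floor on both untreated arrays and on every aspirin array, and read 192.4 to 349 with butyrate. It passed the filter through its butyrate arrays alone, so its calls lend no separate support. There the difference was 1.43 ± 0.24 (0.00296), but its size is set by the floor, with 0.43 (0.173) at the higher floor and 3.62 (0.00481) at the lower one. Leaving out any single array kept both calls. On the 2 and 24 h arrays alone, with hour as a block, limma called 0 of the 6118 probe sets with butyrate (576 at an unadjusted p under 0.05), so no call of a gene can be judged there. The estimates in that fit were 2.11 and 1.10 for the 2 probe sets of Pik3r2.

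Tsc2, for the brake on mTOR activation, read 491.4, 517.3, 1066.7, 551.9 and 523.4 with butyrate, 190.8, 200.4, 287.3, 196.4 and 185.5 with aspirin, and 257.8 and 201.5 without treatment. It rose with butyrate by 1.40 ± 0.35 (limma, adjusted p = 0.0235), and stood 1.52 ± 0.18 above aspirin (0.00647). Pdpk1, for the kinase that activates AKT, read 209.2, 404.5, 324.4, 450.7 and 433.2 with butyrate, 295.3, 102.2, 163, 151.3 and 212.7 with aspirin, and 73.7 and 114.9 in untreated cells. It rose with butyrate by 1.78 ± 0.40 (adjusted p = 0.0157), with the untreated 2 h array at the floor. Its distance from aspirin, 1.02 ± 0.37 higher with butyrate, did not pass (limma, adjusted p = 0.0937). Tsc2 no longer passed when the untreated 2 h array (0.0609) or the untreated 24 h array (0.115) was left out, and the same went for Pdpk1 (0.109 and 0.057). They also missed with hour as a factor (1.20, 0.0728 for Tsc2 and 1.93, 0.0513 for Pdpk1), and Pdpk1 missed with the higher floor (0.95, 0.0754).

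Ptpn1, for a phosphatase that acts on the insulin and IGF receptors, rose with butyrate on 4 of its 5 probe sets, by 1.32 to 1.63 (limma, adjusted p from 0.00121 to 0.0165), while rc_AI112391_s_at gave −0.03 (0.975). Of the 4 probe sets, M33962_at missed without the untreated 2 h (0.076) or 24 h array (0.0518) and rc_AI180145_s_at without the untreated 2 h array (0.112), and both missed with hour as a factor (0.0517 and 0.0628). The adaptor gene Grb2 rose with butyrate on 1 of its 3 probe sets, rc_AI170776_s_at, by 0.69 ± 0.20 (limma, adjusted p = 0.0407). The translation repressor gene Eif4ebp1 fell on 1 of its 3, rc_AI178828_i_at, by 1.11 ± 0.32 (0.0388). The Grb2 call was lost (0.0509 to 0.102) without either untreated array, any butyrate array from 6 h on, or the aspirin array of 12 or 16 h, and with quantile normalization (0.0789), median centring (0.123) and hour as a factor (0.154). The Eif4ebp1 call was lost (0.0531 to 0.217) without any single array other than butyrate 2 h and aspirin 24 h, and with the higher floor (0.0624), no filter (0.0837) and hour as a factor (0.165). Against aspirin Eif4ebp1 was lower with butyrate on all 3 probe sets, by −1.24 to −1.43 (adjusted p from 0.00851 to 0.0205), and on U05014_at it read 7366 at 2 h of butyrate and 2145.5 to 3146.6 at the later hours, against 7702.6 to 9695 with aspirin. Its untreated values were 4058.1 at 2 h and 7963.4 at 24 h. The call on U05014_g_at was lost (0.0529 and 0.0532) without the 16 h array of aspirin or of butyrate. On the other 2 probe sets it was lost (0.0548 to 0.0821) without any array of either drug from 6 h on, and on rc_AI178828_i_at also with no filter (0.0557). Grb2 was higher with butyrate than with aspirin on 2 of its 3 probe sets (0.76, 0.00999, on rc_AI170776_s_at and 0.93, 0.0177, on rc_AA801130_at). The first was lost without the 16 h array of aspirin (0.0519) or butyrate (0.0525) and with median centring (0.0599), and the second without the 6, 16 or 24 h array of either drug (0.0561 to 0.0682). Akt2 was higher with butyrate than with aspirin on 1 of its 2 probe sets (1.14 ± 0.29, 0.037). That call was lost with quantile normalization (0.128) and median centring (0.0668), with no filter (0.0972), and without the 2, 12, 16 or 24 h array of either drug (0.0706 to 0.118).

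**Figure D5:**
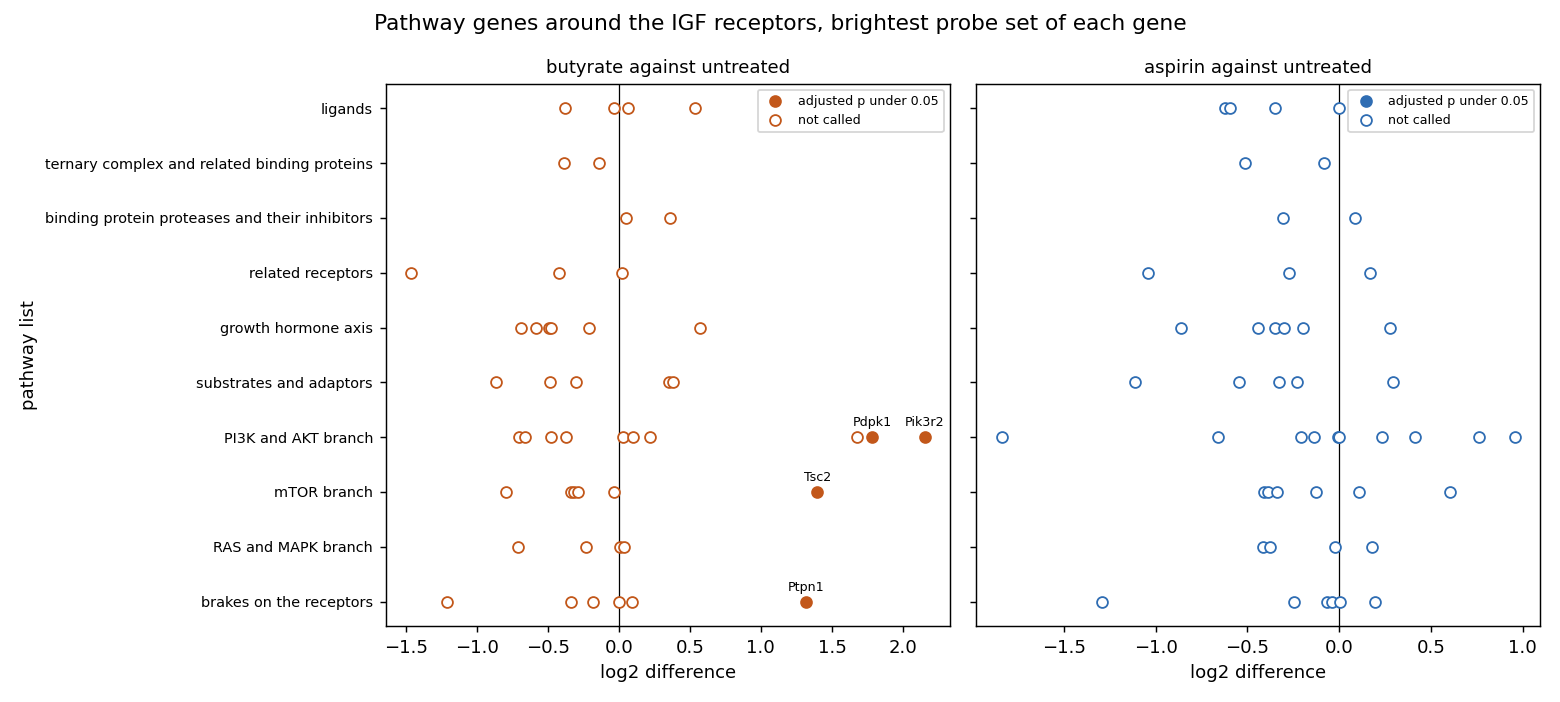
Log2 difference from untreated cells of 48 pathway genes (brightest probe set of each), by list, for butyrate on the left and aspirin on the right; filled points had an adjusted p under 0.05 (limma). The 4 filled points, Pik3r2, Pdpk1, Tsc2 and Ptpn1, all lie above 0 with butyrate, and there is no filled point with aspirin.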

How the data were processed

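The deposited intensity values of 12 arrays were used (8799 probe sets, 59 of them controls). The values are linear, and per array 21.5 to 25.5% of them lie below 0. Which software, background correction and scaling the authors applied is not given in the sources used here. Identical values made up at most 0.114% between any 2 arrays. Every value column was used. Values under the floor, the absolute value of the 10th percentile (91, or 6.51 in log2), were raised to it before log2. The 6118 probe sets with a mean log2 of at least 6.54, the 30th percentile, were tested. A fold or log2 difference thus understates changes of dim probe sets. Names came from the array annotation: 7006 probe sets named 1 gene, 308 several and 1426 none; of 6985 symbols matched by gene number 0 had changed.

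Tests used limma 3.58.1 (R 4.3.3) with a variance trend: drugs against untreated on 12 arrays (9 residual degrees of freedom), butyrate against aspirin on 10 with hour as a block (4), and slopes over log2 hours (6). P-values were adjusted over all tested probe sets (Benjamini-Hochberg, threshold 0.05). Precision is limited by the number of arrays. Code was tested on simulated data. Members and pathway lists were chosen with earlier results of these data known. Named genes were all members, called pathway genes, and Igf1, Igf2, Insr, Irs1, Akt1, Igfals and M6pr, plus the 3 most alike genes. A pathway gene was counted by its brightest probe set. Alternatives were other floors (182 and 20), scalings, no filter, no variance trend, other treatment of time, and leaving out each array.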

Additional observations from a re-analysis of the deposited data

Results flagged for a closer look

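Among the 6 tested probe sets, a sample far from the others in its group was found in 2 of the 12 groups of 5 arrays that were screened by the gap of the end value over the group's range. Chance gives about 1 such group in 20, and the arrays of a group are different hours. Igfbp6 on M69055_at read 1266.1 on the aspirin 2 h array, with a gap of 0.844 of the range of the aspirin arrays on the log2 scale. Igfbp2 on M91595exon_s_at read 123.5 on the butyrate 16 h array, with a gap of 0.736 of the range of the butyrate arrays.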

How the results depend on the processing

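The count of called members was 0 in all 6 comparisons, and 0 under most alternatives. For butyrate against untreated it was 1 with quantile normalization and 1 with median centring. For butyrate against aspirin it was 1 with quantile normalization, median centring, no variance trend or no hour block. For the aspirin slope it was 2 with the lower floor, 1 with quantile normalization and 1 with median centring. With arrays left out singly it ran from 0 to 1 for butyrate against untreated, aspirin against untreated and the aspirin slope. In the comparisons of groups, estimates that were not called turned their sign as follows. Igfbp5 with butyrate read −0.10 with quantile normalization and −0.18 with median centring. Igf1r (L29232_at) with aspirin read 0.014 with quantile normalization, 0.032 with median centring and 0.048 on the 2 and 24 h arrays alone. Between the drugs Igf1r (M27293_s_at) read 0.43 with the lower floor, and Igfbp2 −0.0061 with quantile normalization. With single arrays left out, Igf1r (L29232_at) ran from −1.37 to 0.28 with butyrate and from −0.91 to 0.74 with aspirin, Igfbp2 from −0.61 to 0.017 and Igfbp5 from −0.21 to 0.23 with butyrate, and Igfbp6 from −0.15 to 0.50 with aspirin. Between the drugs Igf1r (M27293_s_at) ran from −0.16 to 0.36 and Igf2r from −0.25 to 0.067. The cause was not tested. Of the values under alternatives in the 3 comparisons of groups (members and called pathway genes) and for the aspirin slopes of Igf1r (M27293_s_at), Igf2r and Igfbp6, 689 kept direction and side of the threshold, 14 gained a call, 89 lost it and 22 turned. Over the 18 slopes and slope differences of members, 19 of 288 estimates turned their sign, 12 of them for butyrate, 4 for aspirin and 3 for the difference, among them that of Igfbp6 without the aspirin 2 h array (−0.05).

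Over all probe sets, called numbers of 716, 9 and 1540 in the 3 comparisons of groups ran from 0 to 1166, 0 to 306 and 240 to 2085, and 550, 101 and 106 slopes from 81 to 552, 7 to 258 and 3 to 119. Median centring moved the median of all tested probe sets by −0.19 with butyrate, 0.12 with aspirin and −0.31 between the drugs. The labels carry no replicate numbers, so arrays were matched by hour alone. Signal at or below the floor on every array kept 7 of the 13 probe sets from being tested. Tested ones were limited by it too: Igfbp5 was at the floor on 2 aspirin arrays and Igf1r (M27293_s_at) on 1. Igfbp2 (M91595exon_s_at) read only 107.7 to 235.7 over the 12 arrays.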
